A study of Psammomys obesus with 8 samples.

Results

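The clustered protocadherins are cell surface adhesion proteins of neurons, encoded by 3 neighbouring gene clusters named alpha, beta and gamma. In mouse and human, each variable exon of the alpha and gamma clusters has its own promoter and is spliced to constant exons that its cluster shares, whereas each beta gene is a single exon with no shared constant part. A single neuron expresses a small, largely random subset of these genes, and the proteins bind like to like, which neurons use to recognise their own branches. Promoter choice is known to involve DNA methylation, the insulator protein CTCF and cohesin, which makes the clusters a classic locus for methylation in brain tissue.

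The members were the contigs whose mouse match lay inside a gene named as a clustered protocadherin. There were 121 such contigs among the 548060 in the table and among the 125082 inside any gene, of which 37 lay in the alpha cluster, 27 in the beta cluster and 57 in the gamma cluster. A further 21 contigs lay outside these genes but nearest to one of them, and 0 of those had an unadjusted p under 0.05 in the edgeR quasi-likelihood test used throughout.

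The contigs came from hypothalamus DNA of male fat sand rats (*Psammomys obesus*, a desert gerbil that becomes obese and diabetic on rich food) aged 16 weeks. Methylated fragments were enriched with MethylMiner, a kit that pulls down DNA through a methyl-CpG binding protein, and were then sequenced. The standard-low group had 4 libraries, with the diet given as standard lipid, and the low-low group had 4, with the diet given as low lipid. The labels do not spell out the 2-part group names or name a genotype; the series title speaks of parental diet and its design text of paternal diet.

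Read counts summed over all contigs were 11646180 to 12156525 in the standard-low libraries and 12528388 to 13533441 in the low-low libraries. Levels are given as CPM, the usual unit of reads relative to library size, after correction of the sizes by the trimmed mean of M values (TMM), and as CPM per kilobase of contig where contigs of different length are compared. The labels do not say whether libraries came from separate animals or litters, so the p-values measure the spread between these samples, which may be partly technical. No input libraries were used here, so a captured level reflects methylation together with the CpG density and the amount of underlying sequence. In whole tissue a change in the mix of cells cannot be told apart from a change within cells. The tissue label could not be checked against marker expression, because captured DNA does not report expression.

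The names in the table resolved the 3 clusters unequally. All 37 alpha contigs carried the single identifier ENSMUSG00000007440, labelled Pcdha10, and all 57 gamma contigs carried ENSMUSG00000023036, labelled Pcdhga3. Pcdha10 and Pcdhga3 therefore stand below for a whole cluster, and isoforms within it, the C-type isoforms Pcdhac1, Pcdhac2, Pcdhgc3, Pcdhgc4 and Pcdhgc5 included, were not told apart. The beta cluster had 14 separate entries, Pcdhb1, Pcdhb2, Pcdhb3, Pcdhb4, Pcdhb6, Pcdhb7, Pcdhb13, Pcdhb14, Pcdhb15, Pcdhb16, Pcdhb18, Pcdhb19, Pcdhb21 and Pcdhb22, of which 7 held 1 contig each. These names rest on the mouse match alone, and whether a contig came from another, similar beta gene was not tested.

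By mouse position, all 3 clusters lay on chromosome 18 in the order alpha, beta, gamma. No source used here names the build of these positions. The alpha contigs ran from 36930162 to 37150264, a span of 220.103 kb, and 35 of the 37 lay before a gap of 53.953 kb that began at 37091499. The 2 contigs after that gap lay at 37145452 to 37146324 and at 37150189 to 37150264, at the end of the alpha span that faces the beta cluster. The beta contigs ran from 37265139 to 37520793, a span of 255.655 kb, with 14 contigs before and 13 after a gap of 98.996 kb between Pcdhb7 and Pcdhb13. The gamma contigs had the shortest span, from 37674669 to 37821764 over 147.096 kb, with a largest gap of 13.386 kb and 8 contigs after it. The spans held few contigs of other genes, with 3 contigs of Gm10545 inside the alpha span and 0 contigs inside another gene in the beta and gamma spans.

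Most protocadherin contigs held no stop codon in at least 1 reading frame. No annotation of exons was used here, so this does not place a contig in an exon, intron or promoter. Read in all 6 frames, 87 of 121 contigs, or 71.9%, had a frame without a stop codon from end to end, against 9.54% of all contigs inside genes. Short contigs are open by chance more often, but among contigs of at least 300 bases the shares were 63.3% of 90 member contigs and 5.43% of all contigs inside genes of that length. The share was 26 of 37 in alpha, 21 of 27 in beta and 40 of 57 in gamma. The mouse match covered at least 90% of the contig for 98 of the 121, and it was shorter than 100 bases for 11. This reading of open frames was chosen after the data were seen and is given as a description.

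CpG sites were also denser than in genes at large. The median density was 4.41 CpG per 100 bases in alpha, 3.37 in beta and 4.16 in gamma, and 3.89 over all members, against 2.26 over all contigs inside genes. Median GC content was 51.7% in alpha, 49.1% in beta and 53.7% in gamma, against 49.7% over all contigs inside genes, so GC content differed less than CpG density did. The ratio of observed to expected CpG had a median of 0.756 in alpha, 0.511 in beta and 0.583 in gamma, against 0.379. The densest member was gamma contig 3887439, with 60 CpG in 392 bases, or 15.3 per 100 bases.

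Captured level differed little between the clusters. The median level was 4.22 CPM per kilobase in alpha, 3.96 in beta and 3.71 in gamma, against 3.52 over all contigs inside genes. Among contigs of at least 300 bases these medians were 3.43, 3.38 and 3.69 CPM per kilobase in alpha, beta and gamma, against 3.36. Single members ranged more widely, and the highest per kilobase were short contigs, led by alpha contig 1850437 at 27.2 CPM per kilobase over 101 bases. No contig of the table had fewer than 81 counts in total over the 8 libraries, so short contigs could not show a low level per kilobase. Ranks by this level, and its correlation with length, carry that floor. Across the 121 members, the rank correlation of CpG density with level per kilobase was 0.28, against 0.51 over all contigs inside genes. Across the same members the rank correlation of contig length with level per kilobase was -0.34, and over the 90 members of at least 300 bases it was 0.10. Contigs share libraries and are not independent replicates, so these are descriptions.

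All 121 members passed the filter on low counts, a mean of at least 10 per library, as did every contig of the table. Member totals over the 8 libraries ran from 81 to 1077 counts. The median member had 18.6 counts per library, at which counting error alone is 23.2% of the value. Close copies can share reads, but 0 members had another contig in the table that was at least 90% identical over 100 bases or more. At least 1 match of that length to another contig existed for 91 members, with a median identity of 79.6% and a highest of 89.9% for the best match. In mouse position 24 gamma contigs overlapped another gamma contig by any number of bases, as did 4 in alpha and 2 in beta. Some met only at their ends, such as gamma contigs 4139666, ending at 37676291, and 3500020, starting at 37676287. Others lay at 1 mouse position, such as gamma contig 263310, from 37694683 to 37694784, inside 1617543, from 37694678 to 37695130.

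Summed over each cluster, capture differed between the groups by less than the spread between libraries. The alpha cluster had 68.9, 74.7, 78.7 and 63.3 CPM in standard-low libraries 1 to 4, against 68.8, 74.3, 72.8 and 79.3 CPM in low-low libraries 1 to 4. The beta cluster had 46.1, 51.7, 44.9 and 43.7 CPM in standard-low and 44.3, 47.8, 47.7 and 47.7 CPM in low-low. The gamma cluster had 127.0, 137.1, 129.8 and 115.8 CPM in standard-low and 120.01, 138.6, 129.96 and 132.9 CPM in low-low. The groups overlapped in all 3 clusters, and standard-low 4 was the lowest standard-low library in each.

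The ratios of group means were close to 1. The alpha sum averaged 71.4 ± 6.76 CPM in standard-low and 73.8 ± 4.34 in low-low (SD, n = 4 each), a ratio of 0.968. The beta sum averaged 46.6 ± 3.54 CPM in standard-low and 46.9 ± 1.70 in low-low, a ratio of 0.995. The gamma sum averaged 127.4 ± 8.87 CPM in standard-low and 130.4 ± 7.78 in low-low, a ratio of 0.977. As the only entries of their clusters, Pcdha10 and Pcdhga3 could be tested as gene sums in edgeR, with log2 fold changes of -0.05 ± 0.07 (SE, adjusted p = 0.917) for alpha and -0.03 ± 0.06 (adjusted p = 0.935) for gamma.

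**Figure D1:**
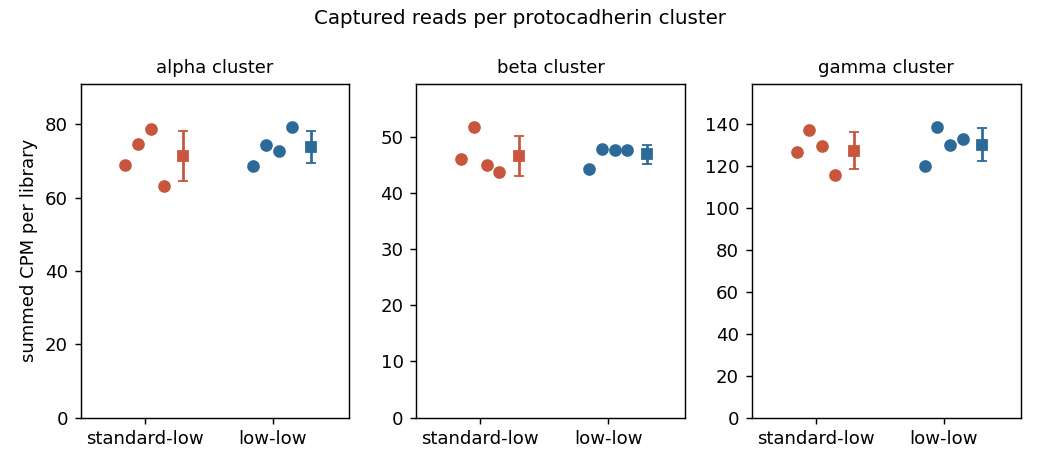
Summed CPM of all contigs in the alpha, beta and gamma clusters, 1 point per library (standard-low left, low-low right), with the group mean and SD as a square with bars; each panel has its own axis from 0. The groups overlap in each panel, with means of 71.4 against 73.8, 46.6 against 46.9 and 127.4 against 130.4 CPM.

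Among the beta genes, each of which encodes its own receptor, 9 of 14 sums were lower in standard-low and 5 were higher, and 0 passed in the gene sum test, where 0.00524% of 19098 genes passed. At an unadjusted p under 0.05 there were also 0 of the 16 member entries, against 6.03% of all genes. The lowest adjusted p of a beta gene was 0.807, for Pcdhb14. Its 4 contigs summed to 7.36, 7.76, 6.80 and 6.0 CPM in standard-low, against 5.04, 6.02, 6.42 and 5.76 CPM in low-low. Standard-low 4 lay below the 2 highest low-low libraries, so the groups overlapped, at 6.98 ± 0.763 against 5.81 ± 0.580 CPM (SD, n = 4 each).

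The other beta genes were spread on both sides of equality. Pcdhb19, read from 1 contig, had the lowest ratio of group means, 0.742, with 1.14 ± 0.279 CPM in standard-low and 1.53 ± 0.390 in low-low (SD, n = 4 each; edgeR adjusted p = 0.821). Over all 8 libraries Pcdhb1, the first gene of the cluster, had the highest mean sum, 9.46 ± 1.30 CPM in standard-low and 9.29 ± 0.751 in low-low over 3 contigs of 2315 bases together. Pcdhb21, with 1 contig of 596 bases, had the lowest mean over all 8, with 1.01 ± 0.317 CPM in standard-low and 1.07 ± 0.288 in low-low. Per kilobase of contig, Pcdhb21 was also lowest, at 1.75 CPM per kilobase over all 8 libraries, against 4.05 for Pcdhb1. The highest beta level per kilobase, 23.5, belonged to Pcdhb16 and rested on a contig of 100 bases.

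Tested contig by contig, 1 of the 121 members passed an edgeR adjusted p of 0.05, against 0.0268% of all 548060 contigs (0.0203% higher and 0.00657% lower). At an unadjusted p under 0.05, 2 members were higher in standard-low, against 2.93% of all contigs in that direction, and 3 were lower, against 2.76%. Together that is 4.13% of members against 5.68% of all contigs. The CPM of the groups did not overlap at 2 members that were higher, against 1.63% of all contigs, and at 3 that were lower, against 1.61%, or 3.24% of all contigs in either direction. Apart from the 1 adjusted call, these counts are near the table's own rates and are no result about the members.

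The contig that passed was 3745920 in the alpha cluster, a fragment of 174 bases at mouse position 36999424 to 36999597. It had 10, 21, 22 and 15 counts in standard-low libraries 1 to 4, against 35, 48, 33 and 46 counts in low-low libraries 1 to 4. Every standard-low value was below every low-low value. In CPM these were 0.856, 1.77, 1.82 and 1.27 in standard-low, with a mean of 1.43 ± 0.457, and 2.67, 3.57, 2.65 and 3.53 in low-low, with a mean of 3.11 ± 0.513 (SD, n = 4 each). The level in standard-low was 0.460 of that in low-low, a log2 fold change of -1.11 ± 0.24 (SE, edgeR adjusted p = 0.0356). The contig matched mouse along its whole length, was open in a frame and held 20 CpG, or 11.5 per 100 bases, the third highest density among members. It lay at 13.0 CPM per kilobase, rank 6 of the 121, on a scale where short contigs rank high. No contig of the table resembled 3745920 over 100 bases.

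The call on contig 3745920 did not hold in every setting. DESeq2 gave an adjusted p of 0.936 and limma voom 0.142. With 1 library left out, edgeR gave an adjusted p of 0.380 without low-low 2, 0.0564 without low-low 3, 0.226 without low-low 4, 0.366 without standard-low 1 and 0.238 without standard-low 4. The log2 fold change stayed between -1.25 and -0.94 in all 14 settings, of which 7 passed.

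The contigs beside it had smaller fold changes. Contig 4172192, just before it at 36998648 to 36999097, had 1.81 ± 0.421 CPM in standard-low and 1.99 ± 0.609 in low-low (SD, n = 4 each), a log2 fold change of -0.14 ± 0.25 (SE, edgeR adjusted p = 0.977). Contig 4204883, just after it at 36999678 to 37000042, had 1.85 ± 0.914 CPM in standard-low and 2.03 ± 0.403 in low-low, a log2 fold change of -0.12 ± 0.25 (adjusted p = 0.981). Contig 158453 overlaps 4204883 in mouse position, from 36999760 to 36999999. Its levels were 1.28, 1.52, 0.83 and 0.338 CPM in standard-low and 1.91, 1.11, 1.36 and 2.07 CPM in low-low, with a log2 fold change of -0.70 ± 0.31 (unadjusted p = 0.0260, edgeR adjusted p = 0.847). Standard-low 1 and 2 lay above the lowest low-low library there, so the groups overlapped, and the fold change was -0.42 without standard-low 4. Farther upstream, contig 2087299 had the opposite sign, 0.40 ± 0.34 on the log2 scale.

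**Figure D2:**
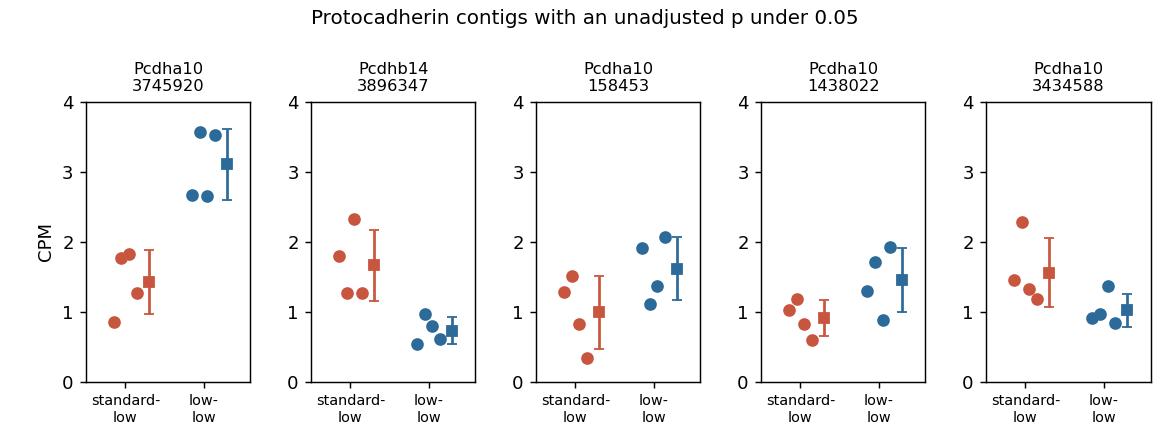
CPM of the 5 protocadherin contigs with an unadjusted p under 0.05, 1 point per library (standard-low left, low-low right), with the group mean and SD as a square with bars. Contigs 3745920 and 3896347 show no overlap of the groups, lower in standard-low in the first and higher in the second, and the other 3 overlap.

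The largest difference in the other direction was in the beta cluster. Contig 3896347 in Pcdhb14 had 1.80, 1.27, 2.32 and 1.27 CPM in standard-low, against 0.535, 0.966, 0.803 and 0.614 CPM in low-low. All 4 standard-low libraries were above all 4 low-low libraries, at 1.66 ± 0.505 against 0.729 ± 0.194 CPM (SD, n = 4 each), a ratio of 2.28. The log2 fold change was 1.18 ± 0.31 (SE), with an unadjusted p of 3.2e-04, and over the whole table it did not pass (edgeR adjusted p = 0.389). This contig differs in make-up from 3745920: of its 483 bases 221 matched mouse, at 37449943 to 37450161, it had no open frame, and it held 2.07 CpG per 100 bases. The contig of Pcdhb14 with the most counts, 4639928, was open throughout and had 3.58 ± 0.727 CPM in standard-low and 3.41 ± 0.419 in low-low, a log2 fold change of 0.07 ± 0.19.

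A pair of further alpha contigs had an unadjusted p under 0.05. Contig 1438022, at 37021025 to 37021365, had 1.03, 1.18, 0.83 and 0.592 CPM in standard-low and 1.30, 1.71, 0.883 and 1.92 CPM in low-low, with a log2 fold change of -0.68 ± 0.31 (unadjusted p = 0.0317, edgeR adjusted p = 0.857). Contig 3434588, near the start of the cluster at 36932550 to 36933221, had 1.45, 2.28, 1.33 and 1.18 CPM in standard-low and 0.917, 0.966, 1.36 and 0.845 CPM in low-low, with a log2 fold change of 0.61 ± 0.30 (unadjusted p = 0.0426, edgeR adjusted p = 0.872). In both, 1 low-low library lay within the standard-low range, and the fold change of contig 3434588 was 0.37 without standard-low 2. The other contigs without overlap, named after their values were seen, were 2278690 in alpha, higher in standard-low by 0.62 on the log2 scale, and 744479 and 2589579 in gamma, with log2 fold changes of -0.31 and -0.58, all at an edgeR adjusted p of 0.886 or more.

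The most heavily read contig of each cluster had close group means. In alpha it was 1235499, an open stretch of 924 bases at 37090317 to 37091235, with 6.26 ± 0.785 CPM in standard-low and 6.26 ± 0.499 in low-low (SD, n = 4 each; edgeR adjusted p = 1). In beta it was 378120 in Pcdhb1, with 5.98 ± 1.11 CPM in standard-low and 5.66 ± 0.680 in low-low (adjusted p = 0.981). In gamma it was 3763805, the longest member at 2277 bases, with 11.12, 11.89, 9.53 and 10.56 CPM in standard-low and 11.46, 10.85, 10.44 and 10.75 CPM in low-low. The standard-low values enclosed all the low-low values, and the means were 10.8 ± 0.994 and 10.9 ± 0.428 CPM (adjusted p = 0.997). The log2 standard errors of these contigs, 0.15, 0.16 and 0.13, were smaller than the 0.24 of contig 3745920.

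Some members varied more between libraries of a group than between groups. Over all members the variance within groups was a median of 1.42 times the mean on the count scale, against 1.27 over all contigs inside genes. The most variable was gamma contig 3411790, at 37807836 to 37808390, where this ratio was 5.99. It had 0.770, 0.337, 2.57 and 0.761 CPM in standard-low and 0.993, 1.93, 1.36 and 2.30 CPM in low-low. Standard-low 3 was the highest and standard-low 2 the lowest of all 8 libraries there.

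Along each cluster, fold changes lay on both sides of 0. The median log2 fold change was -0.09 in alpha, -0.02 in beta and -0.01 in gamma, and -0.04 over all members, against -0.02 over all contigs inside genes and 0.00 over all contigs. Each of the members' medians changed sign when 1 library was left out, to 0.015 in alpha without standard-low 4, to 0.014 in beta without standard-low 3 and to 0.040 in gamma without standard-low 1. Positive values were 16 of 37 in alpha, 11 of 27 in beta and 27 of 57 in gamma, or 44.6% of members against 47.4% of contigs inside genes. Contig 3745920 lay in the third of 4 blocks of alpha contigs by position, from 36991893 to 37006095, whose 9 members had a median of -0.12 with 3 positive. Of 4 such blocks in gamma the first, from 37674669 to 37695940, had a median of -0.09 with 4 of 15 positive. The second had -0.08 with 3 of 14 positive and the third 0.05 with 10 of 14. The last, from 37762479 to 37821764, had 0.18 with 10 of 14 positive. That last block also had the lowest level of the 4, a median of 2.72 CPM per kilobase, and 0 of its contigs had an unadjusted p under 0.05. Differences between these blocks of alpha and gamma contigs were not tested or read again with 1 library left out. The 2 alpha contigs beyond the large gap had log2 fold changes of 0.01 for 3787252 and 0.19 for 3115044.

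**Figure D3:**
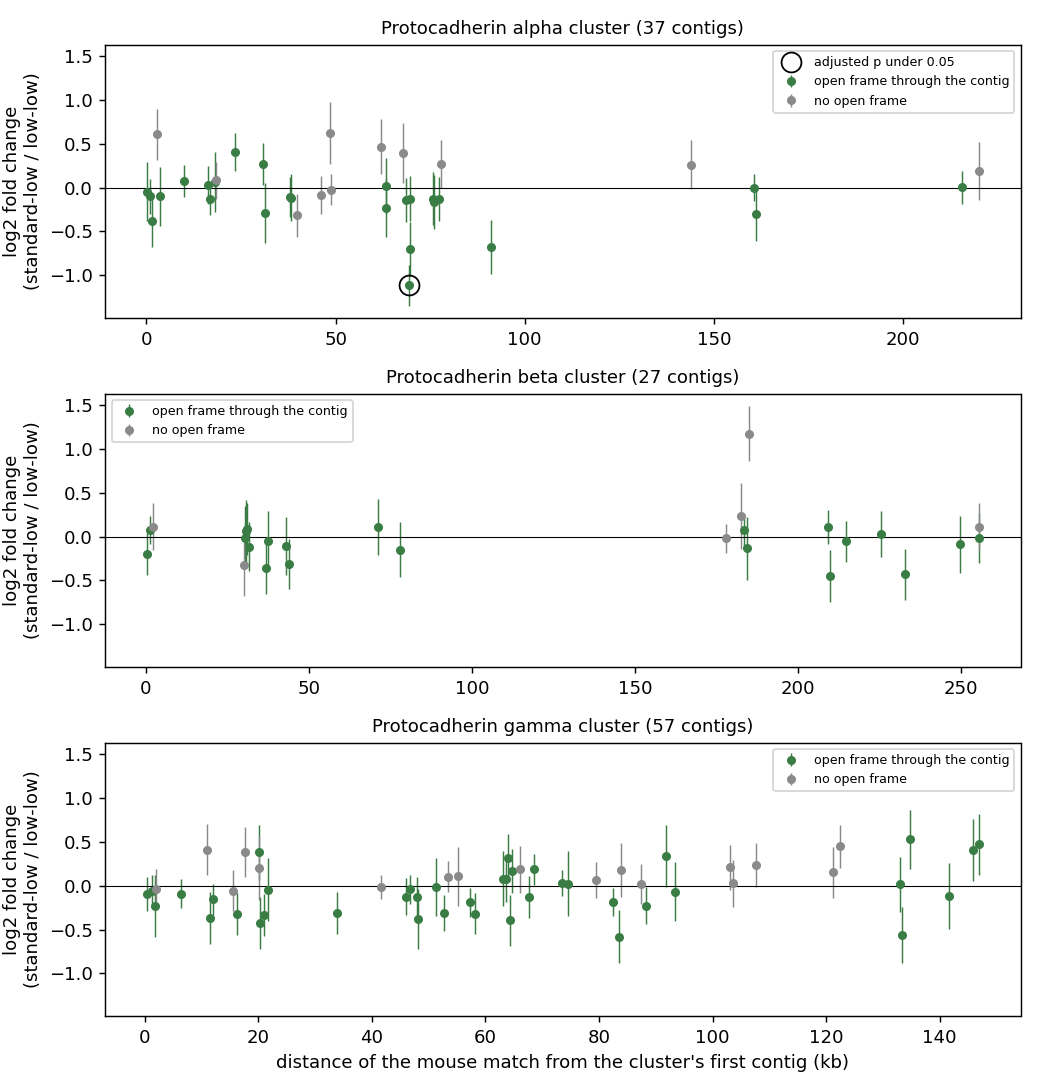
Fitted log2 fold change (standard-low over low-low) of each contig against the distance in kb of its mouse match from the first contig of its cluster, with bars of 1 SE; green points are contigs with an open frame from end to end and grey points those without. The ringed alpha contig 3745920, at -1.11, is the 1 member past an adjusted p of 0.05, and most grey points lie above 0 while most green points lie below it.

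Fold changes also differed with the make-up of the contigs. The 87 contigs with an open frame had a median log2 fold change of -0.10 with 28 positive, and the 34 without one had a median of 0.17 with 26 positive. The same order was seen in each cluster, with medians of -0.12 for open and 0.26 for other contigs in alpha, -0.05 for open and 0.11 for other contigs in beta, and -0.10 for open and 0.15 for other contigs in gamma. Open contigs were also denser in CpG, at a median of 4.48 against 2.64 per 100 bases, and higher in level, at 4.15 against 2.58 CPM per kilobase. They were shorter too, at a median of 368 against 582 bases, and short members had the higher levels per kilobase. The part of length in this difference in level was not tested. Over all contigs inside genes the split had the same sign and was smaller, at -0.08 with 39.2% positive for open contigs and -0.01 with 48.3% positive for the rest. The gap in CpG density was also smaller there, at a median of 2.78 per 100 bases for open contigs and 2.22 for the rest. The mouse match covered a median of 100% of the contig in open members and 80.9% in the other members. The split therefore also separates members by how fully they matched mouse. These splits were chosen after the data were seen and were not tested.

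Fold change followed CpG density in the members and in genes at large. Members with under 2 CpG per 100 bases had a median log2 fold change of 0.19 with 9 of 10 positive, and members with 5 or more had -0.12 with 11 of 36 positive. The steps between were 0.09, -0.06 and -0.07 for densities of 2 to 3, 3 to 4 and 4 to 5. Over all contigs inside genes the medians of the 5 steps were 0.07, -0.02, -0.11, -0.18 and -0.24, so at each density the members' median lay above that of genes at large. The last of these, -0.24 at 5 or more, was -0.14 without standard-low 2 and -0.38 without standard-low 3. The members' -0.12 at that density was -0.04 without standard-low 4, -0.06 without low-low 2 or low-low 4 and -0.18 without standard-low 3. The rank correlation of density with fold change was -0.42 over the 121 members and -0.28 over contigs inside genes. Over the 90 members of at least 300 bases it was -0.46. Members spanned a wider range of density, with lower and upper quartiles of 2.81 and 5.41 CpG per 100 bases. Over all contigs inside genes these quartiles were 1.86 and 2.81.

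**Figure D4:**
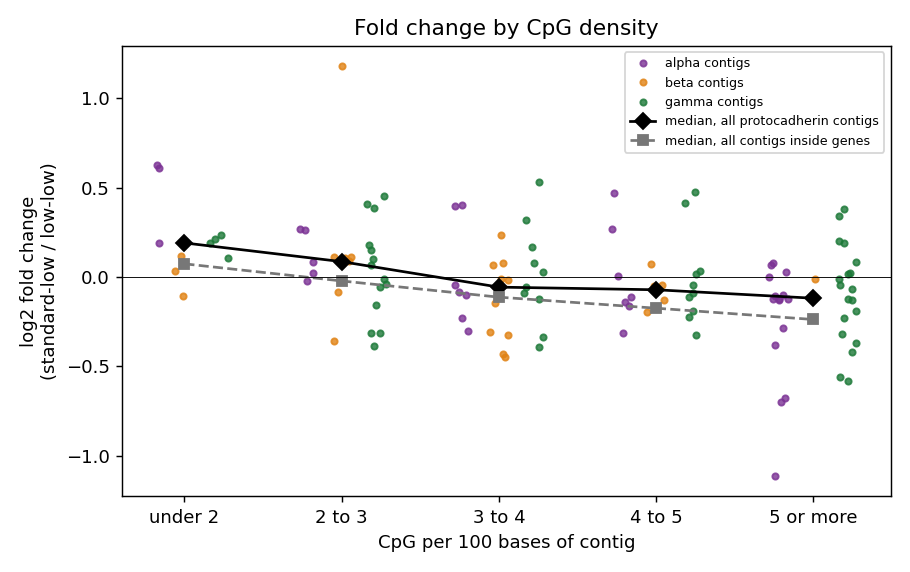
Fitted log2 fold change (standard-low over low-low) of each member by CpG per 100 bases, with points offset sideways for visibility and coloured by cluster. Black diamonds are medians over all protocadherin contigs, falling from 0.19 under 2 CpG to -0.12 at 5 or more, and grey squares are medians over all contigs inside genes, falling from 0.07 to -0.24.

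The libraries also differed in the capture of CpG-dense DNA outside the clusters. Over the 6745 other contigs inside genes with at least 4 CpG per 100 bases, summed CPM was 17125, 13519, 20203 and 15287 in standard-low libraries 1 to 4 and 17414, 19406, 19616 and 19143 in low-low libraries 1 to 4. The groups overlapped, because standard-low 3 was the highest of all, while standard-low 2 and 4 were the lowest. The group means were 16533 ± 2855 in standard-low and 18895 ± 1006 in low-low (SD, n = 4 each). The part of this library difference in the members' fold changes was not tested.

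Genes that act with the clustered protocadherins were read from lists. Among regulators of promoter choice, which include Ctcf, the cohesin subunits, Smchd1 and Dnmt3b, 17 of 18 genes had 159 contigs, of which 0 passed the edgeR adjusted p, 2 were higher and 6 lower at an unadjusted p under 0.05 (2.93% and 2.76% of all contigs), and the median log2 fold change was -0.01. The lowest p among them was at a contig in Dnmt3b, a de novo DNA methyltransferase, on chromosome 2 from 153667551 to 153667762. It had 1.45, 0.843, 1.24 and 1.86 CPM in standard-low and 2.29, 1.78, 2.33 and 2.76 CPM in low-low, a log2 fold change of -0.76 ± 0.25 (SE, adjusted p = 0.740). Standard-low 4 lay just above low-low 2, so the groups overlapped.

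Among partners of the protocadherin cytoplasmic domains and proteases that process them, 16 of 17 genes had 207 contigs, with 0 passing, 6 higher and 2 lower at an unadjusted p under 0.05 (2.93% and 2.76% of all contigs), and a median of 0.03. The lowest p was in Axin1, a scaffold of Wnt signalling, with 1.29 ± 0.353 CPM in standard-low and 0.575 ± 0.139 in low-low (SD, n = 4 each), a log2 fold change of 1.14 ± 0.35 (edgeR adjusted p = 0.647), without overlap of the groups.

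The non-clustered protocadherins, which lie as single genes outside the clusters, had 117 contigs in all 12 listed genes, with 0 passing, 5 higher and 6 lower at an unadjusted p under 0.05 (2.93% and 2.76% of all contigs) and a median of 0.03. The lowest p among them was in Pcdh15, a protocadherin of hair cell tip links, at 0.49 ± 0.18 on the log2 scale (edgeR adjusted p = 0.799). The classical and related cadherins had 376 contigs in 20 genes, with 0 passing, 6 higher and 15 lower on the same terms and a median of -0.01, and the lowest p was in Cdh3, or P-cadherin, at 0.78 ± 0.24 (adjusted p = 0.656).

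Genes next to the clusters on chromosome 18 had 56 contigs in 16 of 20 genes, with 0 passing, 0 higher and 1 lower at an unadjusted p under 0.05 (2.93% and 2.76% of all contigs) and a median of -0.01. The 1 lower contig was in Arap3, at -0.57 ± 0.20 (edgeR adjusted p = 0.754). Markers of the cell types that hypothalamus can hold (neurons, oligodendrocytes, astrocytes, microglia, endothelium, ependymal cells with tanycytes, and blood) had 418 contigs in 35 of 45 genes, of which 0 passed and 26, or 6.22%, had an unadjusted p under 0.05, against 5.68% of all contigs. By list, these were 6 of 147 contigs for neurons, 6 of 32 for oligodendrocytes, 4 of 43 for astrocytes, 2 of 54 for microglia, 8 of 132 for endothelium, 0 of 6 for ependymal cells with tanycytes and 0 of 4 for blood. The oligodendrocyte contigs, 2 higher and 4 lower at that level, had a median of -0.09, with summed levels of 67.3 to 87.0 CPM in standard-low and 80.2 to 84.2 CPM in low-low, and their part in the members' values was not tested.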

How the data were processed

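The authors' deposited table gave whole-number read counts per assembled contig for 8 libraries, with the matched mouse gene, its position and the distance to it for part of them. Per the submitters' processing notes, FastQC and BWA were the tools used on the reads. No source used here gives their versions, the assembler or the mouse build. The header mixes tabs and spaces, so columns were read in the order of its names.

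Counts were tested with edgeR 4.0.16 (TMM, quasi-likelihood F-test, 2-sided, standard-low over low-low) in R 4.3.3, with Benjamini-Hochberg adjustment over all 548060 contigs, and again over 19098 genes after summing the contigs inside each gene. Contigs with a mean under 10 counts were to be removed, and none was. Open frames and CpG were read from the contig sequences, and alike contigs were sought with BLAST 2.17.0. The edgeR tests were also run on simulated counts with known fold changes. Those counts held no library difference in CpG-dense DNA such as the one described above, so they cannot vouch for a single call. Members and gene lists were chosen with earlier results of these data known. Members named with values were those with an adjusted or unadjusted p under 0.05, the contig with the highest mean CPM of each cluster, the highest and lowest gene sums, and the lowest p of each list. The C-type isoforms were to be named too. Alternatives were DESeq2 1.42.0, limma 3.58.1 voom, other scalings, filters and left-out libraries. Depth was 11646180 to 13533441 counts per library, and counting error alone is 23.2% at the median member.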

Additional observations from a re-analysis of the deposited data

Results flagged for a closer look

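Of 56 groups of 4 libraries examined for a value far from the others, 3 held one. Such a gap arises by chance in about 1 in 20 separate groups, which is about the rate seen here. The groups were not all separate, because the beta sum contains Pcdhb13, so that rate is only a rough guide. Summed over the beta cluster, low-low 1 had 44.3 CPM while the other low-low libraries had 47.7 to 47.8 CPM. At Pcdhb4, standard-low 4 had 1.10 CPM while the others of its group had 2.65 to 2.70 CPM. At Pcdhb13, low-low 1 had 4.13 CPM while the others of its group had 5.53 to 5.62 CPM.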

How the results depend on the processing

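Over the whole table the count of contigs called was 147, against 32 with DESeq2, 50 with limma voom, 65 at a mean of 20 counts and 68 to 207 with 1 library left out. Member contigs past the adjusted p numbered 1, and 0 with DESeq2, 0 with limma voom and 0 to 1 with 1 library left out. Members higher at an unadjusted p under 0.05 numbered 2, and 1 with DESeq2, 0 at a mean of 20 counts, where contigs of lower count leave the test, and 1 to 4 with 1 library left out. Members lower numbered 3, and 1 with DESeq2, 5 with limma voom, 1 at a mean of 20 counts and 1 to 4 with 1 library left out; beyond the filter, the cause was not tested. Member genes past the gene sum test stayed at 0 in all 16 settings.

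Values near 0 changed sign. With 1 library left out the log2 fold changes ran from -0.10 to 0.0068 for Pcdha10, -0.0707 to 0.010 for Pcdhga3, -0.0533 to 0.10 for Pcdhb1, -0.12 to 0.011 for Pcdhb2, -0.12 to 0.26 for Pcdhb6, -0.31 to 0.0844 for Pcdhb7, -0.12 to 0.0812 for Pcdhb13, -0.10 to 0.0099 for Pcdhb15, -0.30 to 0.11 for Pcdhb16, -0.10 to 0.19 for Pcdhb18, -0.21 to 0.11 for Pcdhb21 and -0.0477 to 0.13 for Pcdhb22, and for contigs 1235499 and 3763805 from -0.0536 to 0.0852 and -0.0642 to 0.0416. Limma voom gave -0.0044 for Pcdhb18 and -0.0022 for contig 1235499, and library totals gave 0.00063 for contig 3763805. Cluster medians ran from -0.12 to 0.015 in alpha, -0.0882 to 0.014 in beta, -0.0948 to 0.040 in gamma and -0.0949 to 0.0087 over all members. The cause was not tested. The median of open minus not open members, an alternative set chosen after the data were seen, ran from -0.32 to -0.19 with 1 library left out, and that of members with 5 or more CpG per 100 bases from -0.18 to -0.04.

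Same-numbered libraries of the groups correlated at -0.0095 to 0.031 in their deviations, under the 0.1 asked of every pair, so they are taken to share only a number. Of the standard-low libraries 3 of 4, and of the low-low libraries 2 of 4, correlated best with their own number. With the replicate number as a block, edgeR called 206 contigs, 1 of them a member (contig 3745920, log2 fold change -1.12, adjusted p = 0.0199), and contig 1235499 had -0.0025. Depth limits what single members can show, since the median member had 18.6 counts per library.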
